A study of Mus musculus with 20 samples.

Results

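The blood transcriptome of 4 tumour-bearing mice was compared between day 25 and day 15 after tumour cell inoculation. The 8 arrays used, 4 at day 15 and 4 at day 25, are those whose labels give blood on these days, out of 20 arrays in the series, and each day holds the same 4 mice, numbers 305, 310, 315 and 320. All mice were female C57Bl/6 animals that had received 10000000 cells of Hepa1-6, a mouse hepatoma line, under the skin, and no untreated mouse was followed over the same days. Both groups therefore share the tumour graft, and differ in the labels only by the day of bleeding. Blood had also been taken before inoculation (day 0) and on days 10 and 20. The day 25 samples thus follow more earlier bleeds of the same mice than the day 15 samples, which cannot be told apart from the day. Age, tumour size and blood counts are not given in the sources used here.

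Each array carried the RNA of 1 mouse in the red dye, Cy5, and a reference shared by all arrays, RNA from blood of C57Bl/6 mice with no treatment, in the green dye, Cy3. A level below is log2(Cy5/Cy3) of 1 array after background correction and an intensity-dependent loess curve, which centres each array on its genes of like brightness. A level of 0 is thus the usual ratio of such genes on that array, not equal signal with the reference. A change is the day 25 level minus the day 15 level, so -1 means a 2-fold lower level at day 25 relative to such genes. A gene was called changed when the adjusted p of limma's moderated test was under 0.05. The 4 day 15 arrays lay on 1 slide and the 4 day 25 arrays on another, so day and slide cannot be told apart. Per the file headers, the scanner software also read the day 15 arrays with another grid and on another date than the day 25 arrays, and neither can be told apart from the day. The p-values rest on the spread between the 4 mice of a day, pooled over all days of the series and moderated across genes. They therefore do not measure the spread at day 15 and day 25 alone.

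Whole blood RNA comes from leukocytes, from platelets and from reticulocytes, the young red cells that have lost their nucleus but still carry messenger RNA. As a reticulocyte matures it makes haemoglobin and membrane skeleton proteins, then degrades its mitochondria by autophagy and its ribosomes and other proteins through ubiquitin and the proteasome. White cells, in contrast, keep a full programme of translation, splicing and antigen presentation. In bulk blood, fewer cells of a type and less RNA per cell cannot be told apart.

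The arrays of both days differed in overall signal. At day 15, 38.1 to 39.4% of spots had Cy5 signal well above background, and at day 25, 47.6 to 52.2% did. The median net Cy5 intensity, signal minus local background, was 13 to 16.4 at day 15 and 21.9 to 29.7 at day 25. The 10 spike-in probes bind control transcripts added to the RNA and no blood RNA. Their log2 ratios were taken after background correction and loess, to which control spots gave no weight. They are thus relative to the blood genes of the array and are not measured dye ratios. The array medians of these probes were -0.47 to -0.33 at day 15 and -1.69 to -1.07 at day 25. The median change of the probes was -1.02, with a range of -1.18 to -0.85 over the probes. Xist, the RNA of the inactive X chromosome, was well above background in Cy5 on 20 of 20 arrays, and 3 Y-linked genes on 0, which matches female mice. The reference channel showed the opposite, with Xist above background on 0 of 20 arrays and Ddx3y and Eif2s3y on 20, so the reference goes against its label of female blood.

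Of 15161 genes tested, 6143 (40.5%) differed between day 25 and day 15, of which 3002 (19.8%) were higher and 3141 (20.7%) lower at day 25. With the background fitted on all spots, which failed on the day 15 arrays as described with the processing, 3439 genes were called, 2038 higher and 1401 lower. The numbers of higher and lower calls were near equal, but their sizes were not: among called genes 779 were at least 2-fold lower and 8 at least 2-fold higher. The offset of 50, added to both dyes with the background correction, draws the ratios of dim spots towards 0. Fold sizes therefore depend on it, and other offsets were not tested. The median change over all genes was 0.03. In 5947 of the 6143 called genes the difference went the same way in each mouse with both days measured. The calls come from the same arrays, so this count is largely set by the choice of called genes. The groups did not overlap in 3122 genes (20.6%) with day 25 above and in 3219 (21.2%) with day 25 below. Of the 3790 brightest genes 62.2% were called, and of the 3791 dimmest 12.3%. The split between higher and lower calls and the sizes of the changes rest on the scaling of the arrays. When each array was set to its median in place of the intensity-dependent loess curve, the median of all genes moved to 0.36, with 7946 genes higher and 942 lower. When the spike-in probes were set to the same level on all arrays, that median moved to 1.0, with 13507 genes higher and 277 lower. The labels do not describe how the spike-in mixes were added to the RNA, so it is not known whether their ratio should be equal on all arrays. The changes below are therefore changes relative to the bulk of the genes on the array. Counts of gene lists below are to be read against the shares of all genes, 19.8% higher and 20.7% lower.

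Genes of red cells such as Trim10 and Ank1 were among those with the largest falls. Atg4a, a protease that processes autophagy proteins, stood at 1.53, 1.26, 2.28 and 1.6 at day 15 in mice 305, 310, 315 and 320, and at -0.84, -0.37, -0.67 and -0.68 at day 25. All day 15 levels lay above 0 and all day 25 levels below it. It fell by 2.31 (SE 0.26, adjusted p = 1.86e-06), a 4.95-fold lower level, and the groups lay more than 1 log2 unit apart. Ube2s and Slc25a51, a ubiquitin-conjugating enzyme and a mitochondrial NAD carrier, fell by 2.15 and 2.14, and the second probe of Slc25a51 by 0.55. Trim10, an erythroid RING finger protein, fell by 2.11, Cmas fell by 2.09 and Snx15 fell by 2.06. Dhrs11, Glul, Ctsf, Ank1, Prxl2a and Ypel3 followed, with falls of 1.98, 1.98, 1.96, 1.94, 1.94 and 1.92. Each of these genes had groups that did not overlap and Cy5 signal above background on all 8 arrays. The other probes of Glul changed by -0.58 to -0.09, less than the probe that stood for this gene.

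**Figure D1:**
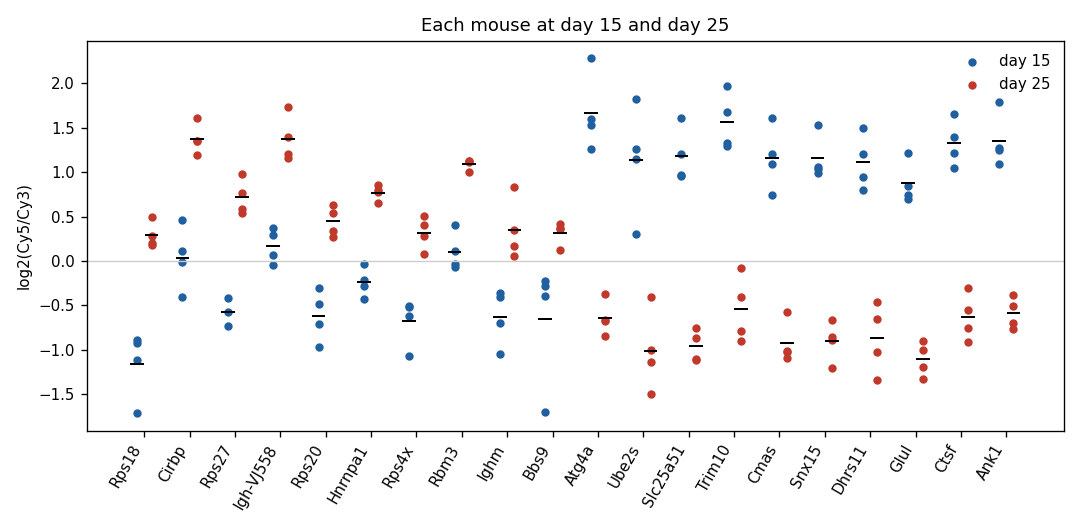
Levels, as log2(Cy5/Cy3), of 10 of the genes that rose most (left) and 10 of those that fell most (right) in each mouse at day 15 (blue) and day 25 (red). Points are single mice and bars are day means. Atg4a lay between 1.26 and 2.28 at day 15 and between -0.84 and -0.37 at day 25, and Rps18 between -1.71 and -0.89 and between 0.18 and 0.50.

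Genes of red cells fell almost as a block. Of 29 erythroid genes tested, 25 were lower at day 25 and 0 higher, against 20.7% and 19.8% of all genes, and the median change of the list was -1.24. In each of the 4 mice the mean of the list was lower at day 25. At day 15 that mean was 0.74, 0.74, 1.03 and 0.84 in mice 305, 310, 315 and 320, and at day 25 it was -0.54, -0.21, -0.48 and -0.20. Ank1, the anchor between membrane and spectrin skeleton, went from 1.09, 1.27, 1.79 and 1.25 to -0.70, -0.51, -0.77 and -0.38, with no overlap. Its change was -1.94 (SE 0.21, adjusted p = 1.53e-06), and its other probes changed by -1.74 to -0.45. Eraf, now called Ahsp, the chaperone of free alpha globin, went from 0.65, 0.76, 1.29 and 1.15 to -0.97, -0.40, -1.0 and -0.75. It fell by 1.74 (SE 0.21, adjusted p = 2.66e-06). Xpo7, a nuclear export receptor of late erythroblasts, fell by 1.82. Hba-a1, an alpha globin gene, lay at 0.93 to 1.55 on the 3 day 15 arrays that measured it and at -0.26 to 0.92 at day 25. Its change of -0.92 (SE 0.36) had an adjusted p of 0.0512 in limma, and of 0.0109 when only the 8 arrays of both days were fitted. The globin gene probes cannot be told apart from near-identical copies. Alas2, the first enzyme of heme synthesis in red cells, was not tested, since its spot was non-uniform on every day 0 array. Its levels were 1.59, 1.43, 1.07 and 1.02 at day 15 and -0.18, 0.38, -0.13 and 0.30 at day 25, with no overlap.

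The erythroid levels at day 25 lay below those of every other day. The mean of the erythroid list over the 4 mice was 0.30 at day 0, 0.80 at day 10, 0.84 at day 15, 0.48 at day 20 and -0.36 at day 25. The lowest array of day 10, day 15 or day 20 stood at 0.34, above all day 25 arrays. At day 0 the range was -0.11 to 0.89, so that the day 0 mouse with the lowest mean also lay above the highest day 25 mouse, at -0.20. These levels of other days are given as a description. The erythroid median stayed below 0 under each scaling tried. It was -0.71 with array medians, -1.49 with the log ratio of the scanner software, -1.01 with the Cy5 channel alone and -0.27 with the spike-in probes held level. In the last case 13 of its genes were lower and 7 higher.

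Most listed genes of heme synthesis and turnover fell, and fewer than 1 in 2 of those of iron handling did. Of 13 genes of heme synthesis and turnover, 9 were lower and 2 higher, with a median of -0.49. Ppox, which oxidises protoporphyrinogen, went from 1.01, 0.99, 1.39 and 1.12 to -0.32, -0.05, -0.29 and -0.06, a change of -1.31 (SE 0.12, adjusted p = 7.61e-07). Blvrb, a biliverdin reductase, fell by 1.65, and the groups did not overlap in either gene. The 2 genes that rose, named after their values were seen, were Alas1, the first enzyme of heme synthesis outside red cells, by 0.45, and Blvra, another biliverdin reductase, by 0.42, with a second Blvra probe at 0.01. Of 18 genes of iron uptake, storage and iron-sulfur clusters, 8 were lower (44.4%) and 3 higher (16.7%). The other 7 did not pass, and the median was -0.25. Glrx5 and Iscu, which act in the assembly of iron-sulfur clusters, fell by 1.66 and 1.39. Glrx5 stood at 0.82 to 1.07 at day 15 and at -0.94 to -0.37 at day 25. With the spike-in probes held level the medians of these lists turned to 0.48 and 0.72, which is -0.52 and -0.28 relative to the median of all genes. With array medians the iron list turned to 0.14, which is -0.22 relative to that median.

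The machinery by which young red cells clear proteins and organelles showed 2 patterns. Of 14 ubiquitin genes tied to red cell maturation, 13 were lower and 1, Fbxl5, higher by 0.33 with other probes at -0.07 to 0.25, with a median of -1.43. Ube2c, a partner of the anaphase-promoting complex, went from 0.52, 0.45, 0.90 and 0.55 to -1.69, -1.21, -1.44 and -0.76, and fell by 1.88. Ube2h and Ube2l6, both ubiquitin-conjugating enzymes, fell by 1.62 and 1.45, with other Ube2h probes at -1.61 to -0.71. Trim10 belongs both to this list and to the erythroid list, and Ube2c both to this list and to the mitotic cycle list below. Proteasome genes did not follow as a group: of 32, 13 were higher (40.6%) and 3 lower (9.38%), with a median of 0.18. The 3 that fell were Psmd4, a ubiquitin receptor of the proteasome, by 1.35, Psmf1, an inhibitor of its core, by 1.24, and Psmd8 by 0.52. The second probes of Psmd4 and Psmf1 changed by -0.18 and 0.02, so these falls rest on the brighter probe. Psmd8 turned to 0.37 with array medians. Of 23 genes of autophagy and mitochondrial clearance, 11 were lower (47.8%) and 1 higher (4.35%). Becn1, which starts autophagosome formation, went from 0.52, 0.28, 0.70 and 0.56 to -0.80, -0.69, -1.11 and -0.72, a change of -1.34 (SE 0.15, adjusted p = 1.52e-06). Atg12 and Map1lc3b, which are conjugated to other proteins or to lipid as the autophagosome grows, fell by 1.33 and 1.22, and the second probe of Map1lc3b changed by -0.08. The list's median was -0.19, with 11 genes not past the threshold. Over the alternatives it ranged from -1.07 to 0.78. The highest value, with the spike-in probes held level, is -0.22 relative to the median of all genes.

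**Figure D2:**
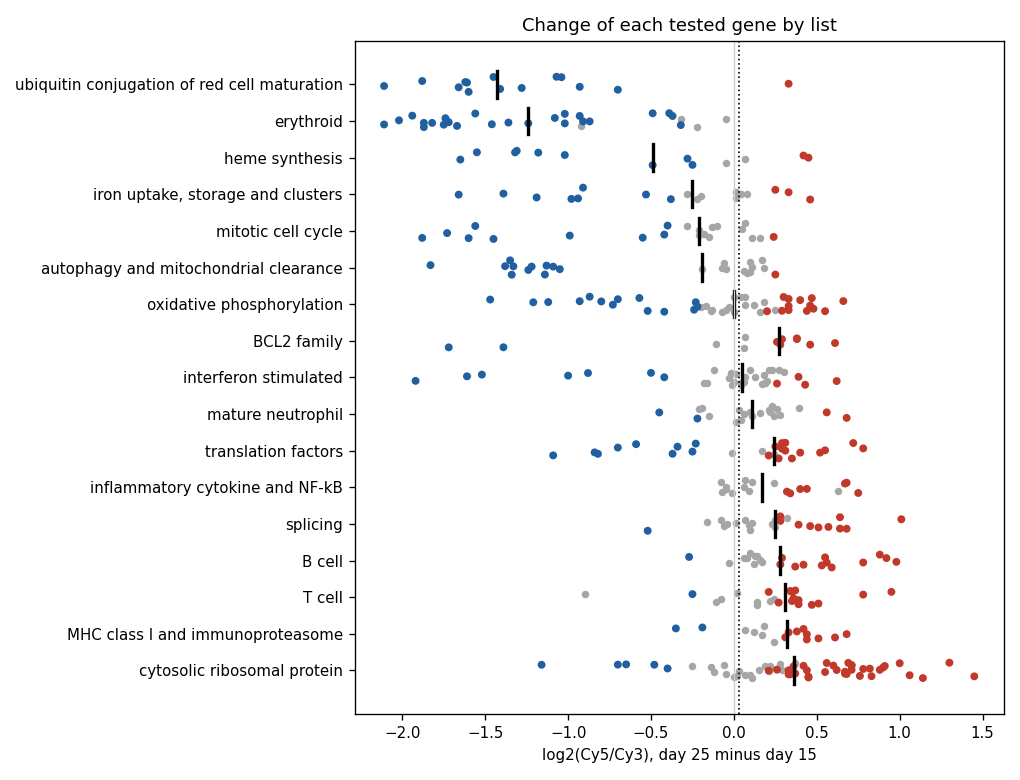
Change of each tested gene, as log2(Cy5/Cy3) at day 25 minus day 15, in 17 of the 37 gene lists. Red points were higher and blue points lower at an adjusted p under 0.05 in limma, grey points were not past it, black bars are list medians and the dotted line is the median of all genes, 0.03. The erythroid list has a median of -1.24 and the ribosomal protein list of 0.36.

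A short motif was looked for in the promoters of erythroid genes because the listed genes moved together. GATA1, the master regulator of red cell genes, binds GATA sites, and only 1 form of these, AGATAA, was searched for. Promoter windows from 250 bases before to 50 bases after the start of transcription came from RefSeq on GRCm38.p6 and were searched on both strands. Of 20 erythroid genes with a window, 7 held the motif (35%), against 12.7% of 27025 genes. The 5 of them that were tested all fell, with a median of -1.75. Of the 12 tested erythroid genes with a window and no match, 9 fell, with a median of -0.90. Windows without this match can hold other GATA forms, such as TGATAA in those of Klf1 and Rhag. The genes without a match are therefore not genes without GATA sites. A match describes the letters in this window and is no evidence of binding. The window of Trim10 (chr17:36869324-36869623, plus strand), the erythroid gene with the largest fall, is shown with its match in capitals, which reads on the opposite strand and whose leftmost base lies 163 bases before the start.

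Trim10: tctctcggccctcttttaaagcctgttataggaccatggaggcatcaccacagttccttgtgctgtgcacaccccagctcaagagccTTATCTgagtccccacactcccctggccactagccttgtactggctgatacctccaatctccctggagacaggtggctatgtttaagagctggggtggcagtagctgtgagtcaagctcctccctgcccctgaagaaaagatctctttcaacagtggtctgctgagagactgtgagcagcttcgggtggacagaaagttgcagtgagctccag

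Interferon-stimulated genes did not move as one. Of 34 tested, 7 were lower (20.6%, against 20.7% of all genes) and 4 higher (11.8%, against 19.8%), and the median was 0.05. The counts of the list thus do not lie above the background, and the values below describe single genes. Isg15, a ubiquitin-like protein attached to other proteins during the antiviral response, had levels of 0.76, 1.16, 1.48 and 0.82 at day 15 and of -1.41, -0.71, -0.73 and -0.62 at day 25. All day 25 levels were below 0 and all day 15 levels above it. Isg15 fell by 1.92 (SE 0.24, adjusted p = 3.84e-06). Irf7, the transcription factor that amplifies interferon output, went from 1.04, 1.64, 1.72 and 1.40 to -0.35, -0.13, -0.19 and 0.01, and fell by 1.61. Rsad2, the antiviral enzyme viperin, fell by 1.52, and its other probes changed by -1.59 and -1.5. Ube2l6, the conjugating enzyme of Isg15, is the gene named with the ubiquitin list. The erythroid list fell over the same arrays, and its part in the falls of these interferon genes was not tested. The windows of Isg15 (chr4:156200769-156201068, minus strand) and Rsad2 (chr12:26456403-26456702, minus strand) are shown because both hold the interferon response motif, a pair of GAAA runs with any 2 bases between them, in capitals. In Isg15, 3 overlapping matches run together, the nearest of which begins 66 bases before the start, and in Rsad2 the match reads on the opposite strand, with its leftmost base 120 bases before it.

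Isg15: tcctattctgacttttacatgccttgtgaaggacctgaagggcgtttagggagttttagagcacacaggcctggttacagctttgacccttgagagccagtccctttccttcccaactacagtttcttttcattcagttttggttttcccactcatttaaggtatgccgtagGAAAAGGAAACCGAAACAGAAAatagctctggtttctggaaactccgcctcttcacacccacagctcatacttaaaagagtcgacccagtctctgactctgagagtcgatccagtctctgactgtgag

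Rsad2: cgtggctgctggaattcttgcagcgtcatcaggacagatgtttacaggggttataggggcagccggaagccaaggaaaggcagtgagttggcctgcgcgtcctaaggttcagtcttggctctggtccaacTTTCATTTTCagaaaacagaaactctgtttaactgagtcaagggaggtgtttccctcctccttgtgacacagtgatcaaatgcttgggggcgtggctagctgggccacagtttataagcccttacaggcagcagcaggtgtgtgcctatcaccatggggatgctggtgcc

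The motif did not separate the interferon genes that fell from the others. It was present in 18 of 26 listed genes with a window (69.2%), against 3.99% of all genes. Of the 17 of these that were tested, 4 fell and 1 rose, with a median of 0.06. Of the 6 tested genes without a match, 2 fell and 1 rose.

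Genes of dividing cells were divided between mitosis and DNA replication. Of 21 genes of the mitotic cycle, 9 were lower (42.9%, against 20.7% of all genes) and 1 higher (4.76%, against 19.8%). Their median was -0.21, and Ube2c, named above with the ubiquitin genes, is one of those that fell. Mki67, a protein of proliferating nuclei, went from 0.79, 0.75, 1.08 and 0.92 to -1.29, -0.55, -0.58 and -0.43, with the lowest level in mouse 305, and fell by 1.60 (SE 0.21, adjusted p = 6.41e-06), its second probe by 0.85. Ccnb2, a mitotic cyclin, and Nusap1, a spindle protein, fell by 1.45 and 1.56. Among 24 DNA replication genes 8 were higher (33.3%) and 2 lower (8.33%), with a median of 0.13. Mcm6 and Mcm4, subunits of the replicative helicase, rose by 0.47 and 0.41 and the primase subunit Prim1 by 0.38. With array medians the mitotic median turned to 0.01, which is -0.35 relative to the median of all genes.

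The BCL2 family changed in both directions. Bcl2l1, the survival protein BCL-XL on which late red cell precursors depend, went from 1.09, 0.98, 1.54 and 1.23 to -0.84, -0.37, -0.60 and -0.24. It fell by 1.72 (SE 0.19, adjusted p = 1.29e-06), and its other probes changed by -1.46 and -1.17. Bak1, a pore-forming death effector, fell by 1.39, and its second probe changed by 0.01. Bcl2, the survival protein of lymphocytes, stood at -0.04, 0.11, -0.05 and 0.11 at day 15 and at 0.70, 0.63, 0.66 and 0.58 at day 25, with no overlap. It rose by 0.61 (SE 0.08, adjusted p = 5.65e-06), but its other probes changed by -0.14 to 0.16, and with the mean of its probes the adjusted p was 0.0647. Of the 12 family members tested, 7 were higher and 2 lower.

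Most ribosomal protein genes tested rose. Of 59 tested, 35 were higher and 5 lower, with a median of 0.36. Rps18 had levels of -0.89, -0.92, -1.71 and -1.12 at day 15 and of 0.28, 0.50, 0.20 and 0.18 at day 25. Every day 15 level was below 0 and every day 25 level above it. Rps18 rose by 1.45 (SE 0.20, adjusted p = 8.84e-06), and its second probe by 1.10. Rps27 rose by 1.30, from the 3 day 15 arrays that measured it, Rps20 by 1.06 and Rpl6 by 0.69, with second probes of Rps20 and Rpl6 at 0.26 and 0.36. Rps4x rose by 1.0 with its brighter probe while its second probe changed by -1.04, and the mean of both was -0.02. Rpl21 went the other way, from -0.06, -0.02, 0.31 and 0.07 to -1.10, -1.0, -1.24 and -1.01, and fell by 1.16, with a second probe at -0.02. Probes of ribosomal protein genes may share sequence with processed copies elsewhere in the genome. The mean of the list was below 0 on all 4 day 15 arrays, at -0.29 to -0.10, and above 0 on all 4 day 25 arrays, at 0.01 to 0.28.

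Other parts of the translation and RNA machinery split. Of 25 translation factors, 13 were higher and 9 lower. Eif3e, a subunit of the initiation factor that recruits the small ribosomal subunit, went from -0.38, -0.23, -0.53 and -0.33 to 0.53, 0.46, 0.34 and 0.32 and rose by 0.78 (SE 0.09, adjusted p = 3.08e-06), with a second probe at 0.29. Eef1a1, which brings aminoacyl-tRNA to the ribosome, rose by 0.72, with a second probe at 0.32. Eif5, which triggers GTP hydrolysis in start codon choice, fell by 1.09, with other probes at -1.33 to -0.16. Of 24 splicing genes, 10 were higher and 1 lower, with a median of 0.25. Hnrnpa1, a repressor of splice sites, rose by 1.01 (SE 0.11, adjusted p = 1.12e-06), from -0.43 to -0.03 at day 15 to 0.65 to 0.85 at day 25, and its other probes changed by 0.02 and 0.43. Hnrnpu and the kinase Clk4 rose by 0.64 and 0.57, with other probes at 0.25 for Hnrnpu and at 0.08 to 0.28 for Clk4. Cirbp and Rbm3, a pair of RNA-binding proteins known for their induction by cold, rose by 1.33 and 0.99. Cirbp stood at -0.01, 0.11, -0.41 and 0.46 at day 15 and at 1.61, 1.35, 1.35 and 1.19 at day 25. The second probe of Rbm3 changed by -0.10.

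**Figure D3:**
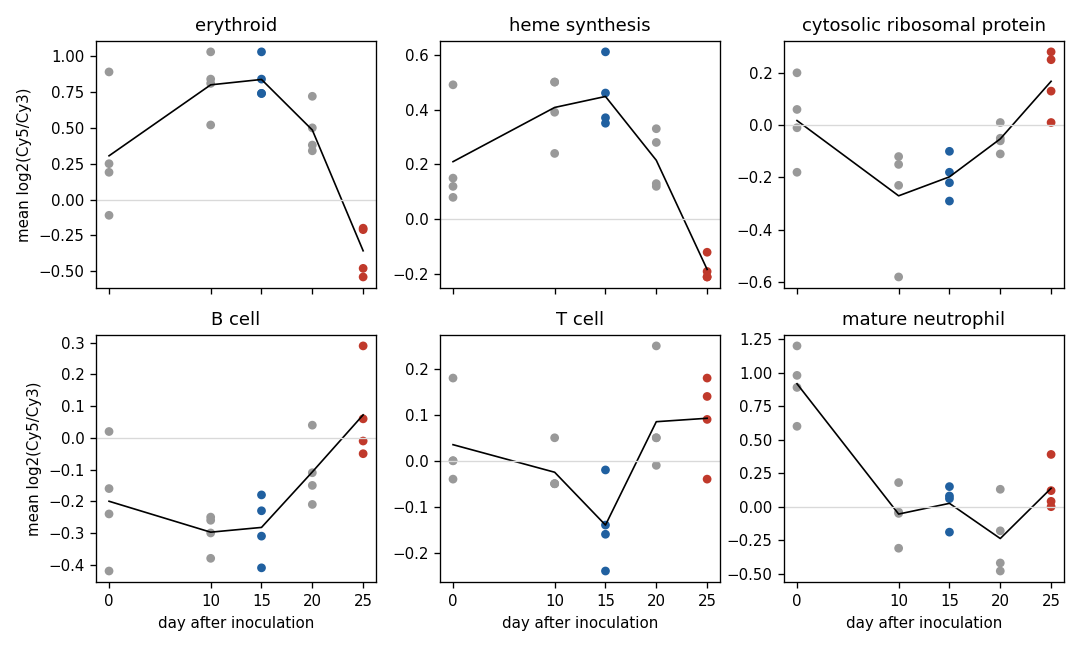
Mean log2(Cy5/Cy3) of 6 gene lists on each array against the day after inoculation, with day 15 in blue, day 25 in red and the other days in grey. Points are single mice and lines join the day means. The erythroid mean falls from 0.84 at day 15 to -0.36 at day 25, and the ribosomal protein mean goes from -0.20 to 0.17.

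Lymphocyte genes were among those that rose. Of 22 B cell genes, 12 were higher and 1 lower, with a median of 0.28, and of 22 T cell genes, 13 were higher and 1 lower, with a median of 0.31. Ighm, the heavy chain of IgM, went from -0.36, -0.41, -1.05 and -0.70 to 0.83, 0.35, 0.17 and 0.06 and rose by 0.98 (SE 0.21, adjusted p = 7.45e-04), and its second probe changed by 0.21. A probe named Igh-VJ558, from an immunoglobulin variable region family, rose by 1.2, and other probes of that name changed by 0.02 to 0.54. Blnk, the adaptor of the B cell receptor, and the follicular homing receptor Cxcr5 rose by 0.88 and 0.56. Cd79a, a signalling chain of the same receptor, was the 1 B cell gene that fell, by 0.27 (adjusted p = 0.0228), with overlapping groups, and it turned to 0.30 with array medians. It lost its call with Cy5 alone (adjusted p = 0.0939), with normexp on all spots (0.646) and without mouse 305 (0.0739) or mouse 320 (0.0644) at day 15 or mouse 315 at day 25 (0.099). Il7r, the interleukin 7 receptor of naive T cells, went from -0.58, -0.14, -0.48 and -0.27 to 0.36, 0.59, 0.57 and 0.79, with no overlap. It rose by 0.95 (SE 0.14, adjusted p = 3.12e-05), and its second probe changed by -0.09. Cd8b1 and Cd3d, chains of the CD8 coreceptor and of the T cell receptor complex, rose by 0.78 and 0.47, and the second probe of Cd8b1 changed by 0.07. Cd3e had levels of 0.64 to 0.91 at day 15 and of -0.24 to 0.16 at day 25, lower without overlap. Its change of -0.90 (SE 0.87) had an adjusted p of 0.439 in the fit of all 20 arrays and of 4.28e-05 when only the 8 arrays were fitted. The first fit also takes in the spread of the other days. The SD of Cd3e was 0.14 at day 15 and 0.19 at day 25, and its mean at day 20 was 2.07.

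Genes of antigen presentation rose in part. Of 16 genes of MHC class I and the immunoproteasome, 9 were higher and 2 lower, with a median of 0.32. Canx, a chaperone that folds class I chains, rose by 0.68 with its brightest probe, while its other probes changed by -0.03 and 0.03. The immunoproteasome subunit Psmb8 rose by 0.51 and the proteasome activator Psme2 by 0.44. Of 11 class II genes 5 were higher (45.5%, against 19.8% of all genes) and 0 lower. H2-Eb1, a class II beta chain, stood at -0.26 to 0.04 at day 15 and at 0.35 to 0.70 at day 25 and rose by 0.59. Cd74, the invariant chain, rose by 0.46.

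Granulocyte and monocyte genes showed counts at or below the background of all genes. Of 21 mature neutrophil genes 2 were higher and 2 lower, of 17 monocyte and macrophage genes 2 were higher and 1 lower, and of 20 platelet genes 3 rose and 3 fell. S100a9, a calcium-binding protein abundant in neutrophils, stood at -0.36, -0.76, -0.66 and -0.43 at day 15 and at 0.64, 0.26, -0.20 and -0.19 at day 25. Its rise of 0.68 (SE 0.26, adjusted p = 0.0408) lost the threshold without mouse 310 (adjusted p = 0.0961), 315 (0.0898) or 320 (0.0547) at day 15, without mouse 305 (0.146) or 310 (0.09) at day 25, with no filter on dim probes (0.0599) and with normexp on all spots (0.0826). Its partner S100a8 changed by 0.23 (SE 0.22, adjusted p = 0.421), Il1b by -0.01 (adjusted p = 0.981) and Socs3 by -0.07 (adjusted p = 0.704), with overlapping groups in all 3. Of 18 genes of the inflammatory cytokine and NF-kB list 7 were higher (38.9%, against 19.8% of all genes), 0 lower and 11 not past the threshold. Nfkbia, an inhibitor of NF-kB, and its relative Nfkbiz rose by 0.75 and 0.44. The survival factor Birc3 rose by 0.67, and its second probe changed by 0.00. The platelet chemokine Pf4 changed by 0.52 (adjusted p = 0.0505, and 0.0299 with the mouse as a block). Gng11, a G protein subunit of platelets, rose by 0.96 while Gp1bb, a chain of the von Willebrand factor receptor, fell by 0.77 and turned to 0.20 with array medians.

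Some genes fell although the median of their list lay near that of all genes. Klf2, a factor that keeps T cells quiescent, lay at 0.00 to 0.15 at day 15 and at -1.70 to -1.09 at day 25. It fell by 1.48 (SE 0.20, adjusted p = 6.50e-06), while its second probe changed by 0.87, so that both probes disagree. Runx1 and Lmo2, blood-forming transcription factors, fell by 1.13 and 1.34, with a second Runx1 probe at 0.06. They were the 2 of 7 tested progenitor genes that fell, in a list with a median of 0.05. Zbtb46, used as a dendritic cell marker, fell by 1.62, while Irf8 of the same list rose by 0.52 (adjusted p = 0.00936), with a second probe at -0.01. Of the 8 dendritic cell genes tested 3 were lower and 1 higher, with a median of -0.05. The antioxidant enzymes Cat, Sod2 and Gclm fell by 1.58, 1.24 and 1.62. In their list of 22, 7 were lower (31.8%, against 20.7% of all genes) and 3 higher (13.6%, against 19.8%). The median of that list was -0.01. Respiratory chain genes were split, with 13 of 43 higher (30.2%) and 14 lower (32.6%). Cox7b, Cox7a2 and Atp5h fell by 1.21, 1.12 and 0.87. Stat3 rose by 0.33 (adjusted p = 0.00474), with a second probe at -0.07 and an adjusted p of 0.122 for the mean of its probes.

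Markers of the graft's tissue of origin were looked at as a list. Of 13 liver and hepatoma genes tested 3 were lower (23.1%, against 20.7% of all genes) and 0 higher (against 19.8%). The mean of the list went from 0.30, 0.25, 0.30 and 0.37 at day 15 to 0.06, 0.06, 0.48 and 0.24 at day 25, higher in mouse 315 and lower in the other 3. Alb, albumin, changed by 0.09 and Afp, alpha-fetoprotein, by 0.18, both not past the threshold. Fgb, a fibrinogen chain, fell by 0.98 and Tat by 0.81, and Tat turned to 0.10 with array medians. Of the 21 liver genes listed, 20 were on the array and 13 passed the signal filter. Of 10 skin and muscle genes 2 were lower (20%, near the share of all genes) and 0 higher.

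**Figure D4:**
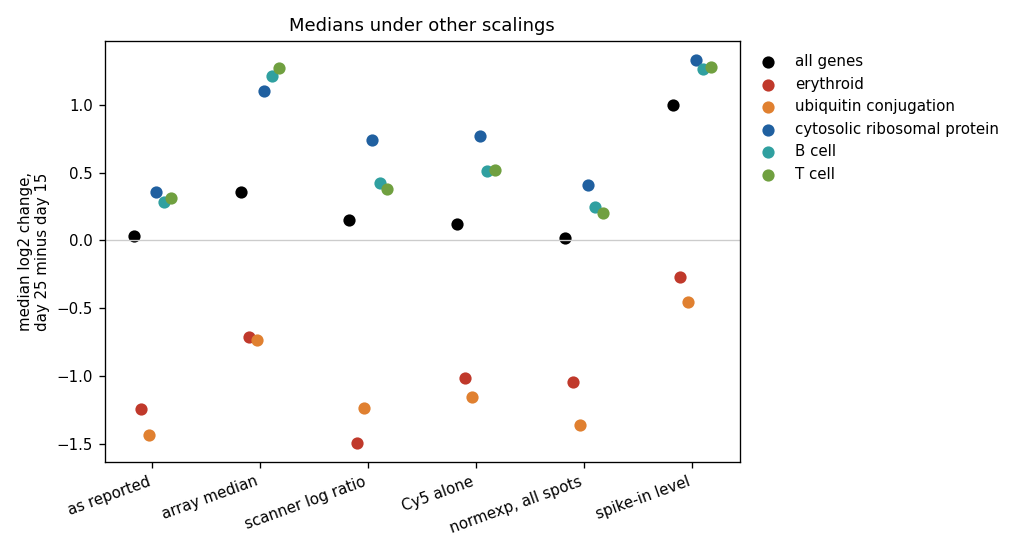
Median change, day 25 minus day 15 in log2 units, of all genes and of 5 gene lists under 6 ways of scaling the arrays. The erythroid list lies below 0 under each, from -1.49 to -0.27, while all genes lie between 0.02 and 1.0.

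Xist rose by 1.33 (SE 0.14), but its reference channel was not well above background on any array, so its ratio rests on background. Its net Cy5 intensity was 295 to 493 at day 15 and 1790 to 4030 at day 25, against -1.59 to 7.70 and 15.9 to 27.5 in Cy3. Its other probes changed by 0.03 to 0.88, and the scanner software's log ratio gave an adjusted p of 0.216.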

How the data were processed

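Blood RNA of 4 mice at 5 days was measured on 20 two-colour arrays. The deposited scanner files give, per the file headers, intensity as mean signal and local background of each spot, from Agilent Feature Extraction 9.1.3.1. The deposited log10 ratio, per the file headers dye-normalized by that software, was used only as an alternative. Further steps by the authors are not given in the sources used here.

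Background was corrected with normexp (offset 50) in limma 3.58.1 under R 4.3.3, followed by loess within arrays, to which control spots gave no weight. The plan was to fit normexp on all spots. A few spots with very high local background upset that fit on all 4 day 15 arrays but only 1 day 25 array: the fitted Cy5 background mean reached -588, against -10 to -8.64 at day 15 once the lowest 0.1% of spots were left out of the fit. On the day 25 arrays of mice 305, 315 and 320 the fit on all spots was not upset. There the fitted Cy5 background SD was 1.81, 1.42 and 1.55 with all spots. Without the lowest 0.1% it was 8.83e-05, 0.306 and 0.0264, so near 0 for mice 305 and 320. The fit without the lowest 0.1% of spots is reported. This change was made after the data were seen and after the number of calls under both fits and under other background settings was known: it gives 6143 calls, where the planned fit gives 3439.

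Non-uniform spots were left out, and spots of a probe averaged. Probes with Cy5 signal well above background on at least 4 arrays, averaged over their spots, and measured on at least 3 arrays of each day were kept (20920). The brightest probe stood for a gene (15161). The exact form of this filter was chosen so that it gave the same number of probes as an earlier analysis of these data. A single linear model (lmFit, eBayes) of all 20 arrays had a mean for each of the 5 days and no block for the mouse. Its two-sided p-values were adjusted by Benjamini-Hochberg. The fit was tested on simulated data with independent errors and no effect of slide or scaling, so that test cannot speak to either. The mouse number pairs the arrays, since each mouse was bled on each day; deviations of 1 mouse at both days correlated at -0.111 to 0.162.

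Of 41174 probes 56.8% were named by accession, 16.4% by symbol and 7.09% by synonym through RefSeq names of GRCm38.p6, and 19.8% kept the file's name. Genes were named by rule: the 14 highest and 14 lowest called genes with a symbol and the same sign in every mouse, up to 3 called members of each of 37 lists with the smallest p, and fixed genes. Some genes that meet this rule are not reported here. The comparison, the members and the lists were chosen with earlier results of these data known. Of called genes, 191 were not well above background on any day 15 array and 20 on any day 25 array; folds of these are not given. The number of arrays limits the precision. Alternatives covered background, normalization, filters, probes, the fit, the mouse as a block and single arrays left out.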

Additional observations from a re-analysis of the deposited data

Results flagged for a closer look

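In 24 of the 328 groups of 4 mice looked at, 1 mouse stood apart from the other 3 by Dixon's criterion, which chance meets in about 1 of 20 groups. At day 15, mouse 305 stood apart in Prss34 (0.70, others 0.42 to 0.43). At day 15, mouse 310 stood apart in Bbs9 (-1.70, others -0.39 to -0.23) and Cd8b1 (-0.14, others -0.52 to -0.46). At day 15, mouse 315 stood apart in Snx15 (1.53, others 0.99 to 1.06) and Nusap1 (1.25, others 0.82 to 0.85). At day 15, mouse 320 stood apart in Xist (3.06, others 2.84 to 2.87). At day 25, mouse 305 stood apart in H2-Eb1 (0.70, others 0.35 to 0.41), Herpud1 (0.44, others 0.11 to 0.13), Isg15 (-1.41, others -0.73 to -0.62) and Mki67 (-1.29, others -0.58 to -0.43). At day 25, mouse 310 stood apart in Cmas (-0.58, others -1.09 to -1.01). At day 25, mouse 315 stood apart in Gng11 (-0.04, others -0.57 to -0.48). At day 25, mouse 320 stood apart in Rbm3 (1.0, others 1.11 to 1.13), Klrd1 (-0.22, others 0.38 to 0.49), Runx1 (0.20, others -0.18 to -0.12), Tnfrsf4 (0.19, others -0.24 to -0.19) and Havcr2 (0.00, others 0.28 to 0.33). The values are log2(Cy5/Cy3). The probe of Havcr2 was not well above background on any day 15 array. 

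For the means of gene lists, mouse 315 at day 15 stood apart in the monocyte and macrophage list (-0.10, others 0.10 to 0.14). Mouse 320 at day 25 stood apart in the cytotoxic and NK cell list (-0.43, others 0.17 to 0.29). Mouse 305 at day 25 stood apart in the regulatory T cell and checkpoint list (0.04, others 0.21 to 0.21). Mouse 320 at day 25 stood apart in the MHC class I and immunoproteasome list (0.06, others 0.12 to 0.13). Mouse 305 at day 25 stood apart in the mitotic cell cycle list (-0.30, others -0.14 to -0.12). Mouse 310 at day 25 stood apart in the oxidative phosphorylation list (0.00, others -0.03 to -0.03). Mouse 305 at day 25 stood apart in the heat shock and unfolded protein list (-0.23, others -0.17 to -0.16). Of the 24 cases 7 fell on mouse 305 and 7 on mouse 320 at day 25. What sets these mice apart was not tested.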

How the results depend on the processing

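The number of calls, 6143, was 5016 to 5969 with single arrays left out, with 2306 to 2908 genes higher and 2710 to 3061 lower and a median of 0.01 to 0.03. With the mouse as a replicate block it was 6327 over all 20 arrays and 6382 over the 8, within 1.5 times. Of the genes named in the report the block over 20 arrays changed the call of Pf4, and the fits of 8 arrays also those of Hba-a1 and Cd3e. With normexp fitted on all spots, an alternative added after the data were seen although it was the planned setting, 3439 genes were called, 2038 higher and 1401 lower, and 3056 calls were shared, all with the same sign. Array medians in place of loess gave 8888 calls, 7946 higher and 942 lower, and a median of 0.36. Of the 4128 calls shared with the reported fit, 3798 kept their sign. The spike-in level, also added later, gave 13784 calls, 13507 higher and 277 lower, and a median of 1.0. Cy5 alone gave 4830 genes higher and a median of 0.12, the scanner software's log ratio a median of 0.15 and no filter on dim probes a median of 0.00. The higher share of all calls was 48.9% as reported, 89.4% with array medians, 98.0% with spike-ins and 60.1% with Cy5 alone.

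With array medians, where the median of all genes was 0.36, the sign turned for Ccr9 (0.06), Prss34 (0.09), Hsp90ab1 (0.32), Jund (0.00), Tat (0.10), Mxd1 (0.53), Ace (0.05), Tlr9 (0.33), Gp1bb (0.20), Selp (0.27), Psmd8 (0.37), Tnfrsf4 (0.35) and Cd79a (0.30). With Cy5 alone it turned for C1qb (0.06) and Tat (0.08), with the mean of all probes for Rps4x (-0.02) and with normexp on all spots for Prss34 (0.03). Rpl21, Eif5, Sod2, Cox7b, Cox7a2, Atp5h, C1qb and Fgb kept their sign and lost their call with array medians, and Bak1, Runx1, Prim1, Psmd8, Tat, Fgb, S100a9, Cd79a, Klrd1, Tnfrsf4, Havcr2, Mxd1, Ace and Selp did so with normexp on all spots. The cause was not tested. Of 123 called genes chosen by the rule, not all of which the report describes, 77 kept direction and call in each of the 22 alternatives that gave a value for it, the spike-in level not among them. Genes near background, most of all on the dimmer day 15 arrays, are limited by their signal.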
